A study of Mus musculus with 24 samples.

Results

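The effect of a pituitary stalk electrical lesion (PEL) was compared between the hypothalamus and the hippocampus of mice, gene by gene, as the difference of 2 differences. PEL is a surgical model in which an electric current damages the connection between hypothalamus and pituitary gland. Of the 24 libraries of the series, 12 belong to the 4 groups needed, which are hypothalamic Sham (SHAM, day 0), hypothalamic PEL at day 10 (PEL_10d), hippocampal Sham (HIP-SHAM, day 0) and hippocampal PEL at day 10 (HIP-PEL_10d), with 3 libraries each. The mice were male C57BL/6J, the hypothalamic tissue included the supraoptic and paraventricular nuclei, and no group used here received growth hormone. Libraries were chosen by these labels, and the libraries labelled SHAM 1 and HIP-SHAM 1 were left out of the principal comparison, which leaves 10. Their estimated counts summed to between 15095267 and 17973494 per library.

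Magnocellular neurons of the supraoptic and paraventricular nuclei make vasopressin and oxytocin and send their axons through the stalk, so that a lesion there cuts axons whose cell bodies lie in the hypothalamus. The hippocampus sends no axons through the stalk, but it holds oxytocin and vasopressin receptors and lies beside the choroid plexus, the epithelium that makes cerebrospinal fluid. Cut axons and dying neurons are cleared by microglia and macrophages, and nearby astrocytes react with a rise of intermediate filament genes.

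The profiles of both libraries left out opposed their tissue labels. Over 13051 genes, the median correlation of log2 FPKM of the library labelled SHAM 1 was 0.859 with the hypothalamic libraries and 0.948 with the hippocampal libraries, across genes, which are not independent replicates. For the library labelled HIP-SHAM 1 the same medians were 0.975 and 0.863. The 16 hypothalamus markers summed to 2302 and 2386 FPKM in SHAM 2 and 3 and 131 in SHAM 1, and to 146 and 196 in HIP-SHAM 2 and 3 and 2171 in HIP-SHAM 1. *Avp* stood at 0.453 FPKM in SHAM 1 and 139 in HIP-SHAM 1. HIP-SHAM 3 carries a hypothalamic tissue field in its labels but had a median correlation of 0.976 with the hippocampal libraries and 0.309 FPKM of *Avp*, and was kept with its title. No library was reassigned.

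**Figure D1:**
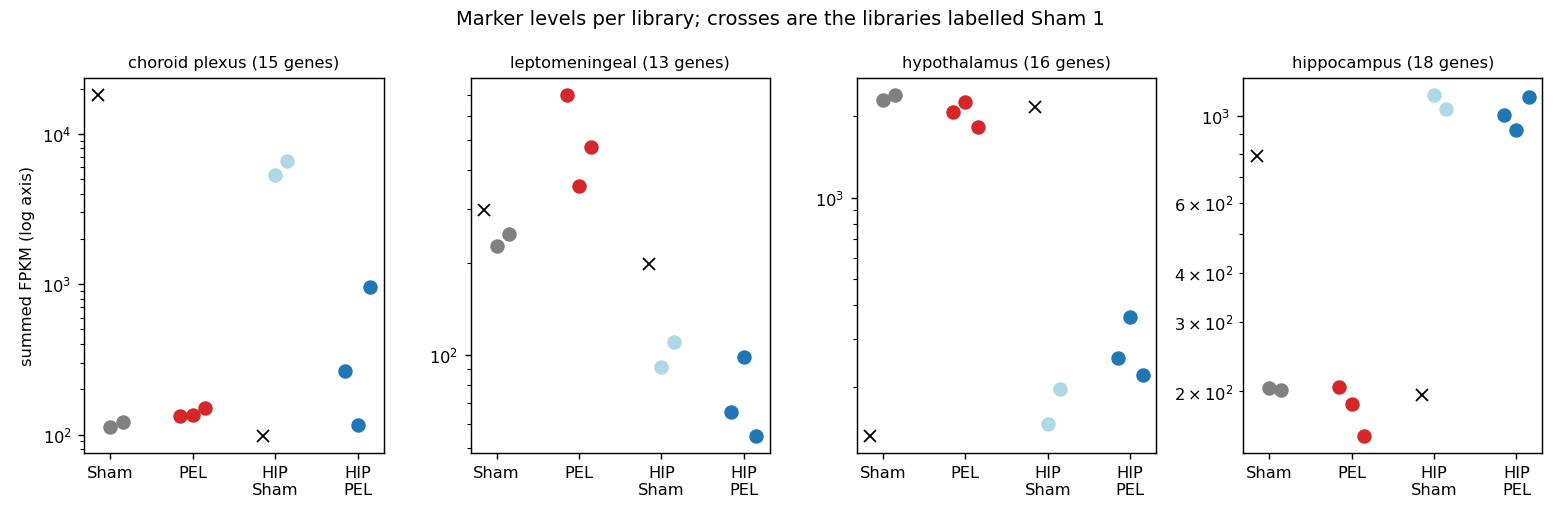
Summed FPKM (log axis) of 4 marker lists in each of the 12 libraries by group, with the libraries labelled Sham 1 as crosses. The crosses of the hypothalamus and hippocampus lists lie with the other tissue, and the choroid plexus sum is 5308 and 6625 FPKM in the HIP-SHAM libraries kept against 267, 116 and 957 in HIP-PEL_10d.

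The lesion effect differed between the regions for 1616 of 15053 genes tested (10.7%) by the interaction term in edgeR (quasi-likelihood F test, p adjusted after Benjamini and Hochberg over all genes tested). It was higher in the hypothalamus for 981 (6.52%) and lower for 635 (4.22%). List counts of genes past the interaction below are to be read beside these shares. Values below called interaction are the log2 fold change of PEL_10d against SHAM minus that of HIP-PEL_10d against HIP-SHAM, so a positive value says that the gene went further up, or less far down, in the hypothalamus. In the same fit, 1149 genes rose (7.63%) and 675 fell (4.48%) in the hypothalamus, while 340 rose (2.26%) and 658 fell (4.37%) in the hippocampus. The median over all genes tested was −0.03 for the interaction, −0.05 in the hypothalamus and 0.00 in the hippocampus.

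Among the 1616 genes, 708 changed past the threshold in the hypothalamus only (510 higher, 198 lower), 501 in the hippocampus only (198 higher, 303 lower) and 103 in opposite directions (76 higher and 27 lower in the hypothalamus). A further 9 changed in the same direction by unequal amounts, and for 295 neither region passed on its own. Only in one region means that the other region missed the threshold while the interaction passed it. Genes named as the extremes of the one-region and opposite classes had to be without overlap between Sham and PEL libraries where they changed. The lack of overlap given for those genes below is thus no separate evidence. Of the 510 genes higher in the hypothalamus only, 267 had an absolute hippocampal log2 fold change under 0.25. The class median was 1.08 in the hypothalamus and −0.14 in the hippocampus. Without PEL_10d 3 this class held 337 genes, and fewer in each fit that left a region with 1 Sham library. The 303 genes lower in the hippocampus only had medians of −1.10 in the hippocampus and 0.19 in the hypothalamus. Without HIP-PEL_10d 2 that class held 174 genes, and fewer in each fit that left the hippocampus with 1 Sham library. Medians of the smaller shifts were −0.31 in the hypothalamus for the 198 genes lower there only and 0.53 in the hippocampus for the 198 genes higher there only.

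These counts rest on few libraries. With both Sham 1 libraries in the fit, 94 of 14912 genes passed (0.63%), 93 higher and 1 lower, of which 93 were among the 1616; 75 were then classed as hypothalamus only, 5 as hippocampus only and 0 as opposite in edgeR (156 opposite at an unadjusted p under 0.05). With only SHAM 1 added 15 genes passed, and with only HIP-SHAM 1 added 284. Of 34 gene lists with at least 1 gene past the interaction, 10 had one in edgeR once both were added and 24 had 0, with 81 genes of the latter at an unadjusted p under 0.05; no other tool was run on those 12 libraries. The interaction count was 630 without SHAM 2, 621 without SHAM 3, 688 without HIP-SHAM 2, 602 without HIP-SHAM 3 and 969 without HIP-PEL_10d 2, and in the first 4 of these fits the single Sham library of a region is assumed to vary like the other groups.

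Leaving out 1 library also moved the counts of each direction. In place of the 675 genes that fell in the hypothalamus there were 53 without SHAM 2, 127 without SHAM 3, 176 without HIP-SHAM 2, 176 without HIP-SHAM 3, 352 without HIP-PEL_10d 1, 268 without HIP-PEL_10d 2, 287 without HIP-PEL_10d 3, 327 without PEL_10d 1 and 341 without PEL_10d 3, and in place of the 1149 that rose there 341 without SHAM 2 and 432 without SHAM 3. In place of the 340 genes that rose in the hippocampus there were 28 without HIP-SHAM 2, 88 without HIP-SHAM 3, 153 without HIP-PEL_10d 2 and 726 without HIP-PEL_10d 1, and in place of the 658 that fell there 246 without HIP-SHAM 2, 224 without HIP-SHAM 3, 317 without HIP-PEL_10d 2 and 434 without HIP-PEL_10d 3. Adding both Sham 1 libraries left 374 genes higher and 13 lower in the hypothalamus, and 13 in the hippocampus that were all lower. The count of genes lower in the hypothalamus only, 198 in the 10 libraries, was 17 without SHAM 2, 26 without SHAM 3, 30 without HIP-SHAM 2, 27 without HIP-SHAM 3, 72 without HIP-PEL_10d 2, 80 without HIP-PEL_10d 3, 131 without PEL_10d 1 and 84 without PEL_10d 3, and that of genes higher in the hippocampus only, also 198, was 22 without HIP-SHAM 2, 53 without HIP-SHAM 3, 85 without SHAM 2, 77 without SHAM 3, 430 without HIP-PEL_10d 1 and 84 without HIP-PEL_10d 2. The split of the interaction calls into higher and lower was 568 and 120 without HIP-SHAM 2, 460 and 142 without HIP-SHAM 3, 472 and 158 without SHAM 2, 458 and 163 without SHAM 3 and 696 and 273 without HIP-PEL_10d 2. It was 823 and 347 on the FPKM scale with a pseudocount of 0.1, 894 and 356 with 1 and 1034 and 893 with DESeq2. On the FPKM scale the hypothalamic calls split into 944 higher and 129 lower with a pseudocount of 0.1 and 1054 and 157 with 1. With no filter they split into 1280 and 276, with all groups in 1 fit into 1296 and 256. A replicate block by number gave 918 higher and 407 lower in the hypothalamus. With DESeq2 the hippocampal calls split into 584 higher and 625 lower, and with all groups in 1 fit into 597 and 672.

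**Figure D2:**
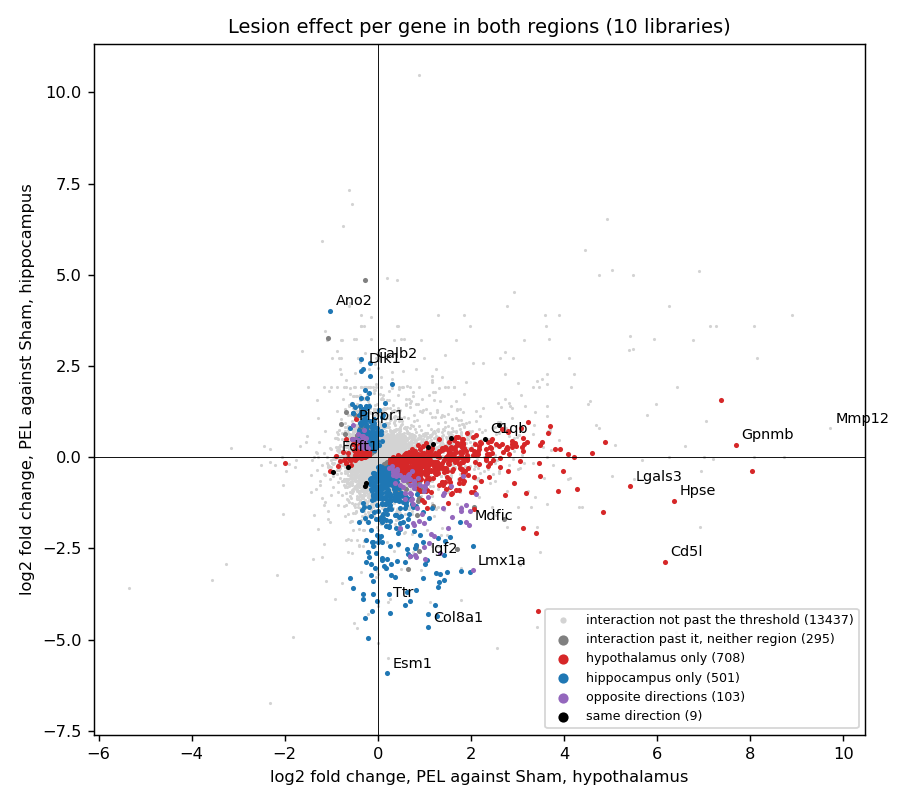
Each point is 1 of 15053 genes, with its log2 fold change of PEL_10d against SHAM on the horizontal axis and of HIP-PEL_10d against HIP-SHAM on the vertical axis, coloured by class. Genes of the hypothalamus only class (708) spread to the right along the horizontal axis and genes of the hippocampus only class (501) mostly downward along the vertical axis.

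Genes of phagocytes rose in the lesioned hypothalamus, where 31 of 35 genes of the phagocyte list tested passed as higher. In the hippocampus 1 rose and 1 fell past the threshold in edgeR. At an unadjusted p under 0.05 in edgeR 5 rose there and 2 fell, and with DESeq2 3 rose and 1 fell. *Gpnmb*, a glycoprotein of lipid-laden phagocytes (chr6:49036546-49070929, GRCm38), had 1.32 and 2.10 CPM (counts scaled to the normalized library size) in SHAM 2 and 3 and 433, 97.5 and 541 in PEL_10d 1 to 3, against 4.33 and 4.57 in HIP-SHAM and 7.02, 4.61 and 5.46 in HIP-PEL_10d. All PEL_10d libraries lay above both SHAM libraries, with PEL_10d 2 the lowest of them. Its interaction was 7.34 ± 1.35 (SE, adjusted p = 0.00701). *Lgals3*, the galectin of activated macrophages, had 1.07 and 1.26 CPM in SHAM, 79.3, 14.8 and 57.3 in PEL_10d, 2.45 and 3.07 in HIP-SHAM and 2.47, 0.659 and 1.73 in HIP-PEL_10d. PEL_10d 2 was again the lowest of the lesioned hypothalamic libraries, the hippocampal groups overlapped, and the interaction was 6.22 ± 1.19 (SE, adjusted p = 0.0085).

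Other genes of this class had almost no counts in SHAM, where the fitted value depends on the count added before taking logs. *Cd5l*, a secreted scavenger protein of macrophages, had 1 and 1 counts in SHAM, 166, 27 and 70 in PEL_10d, 4 and 2 in HIP-SHAM and 1, 0 and 0 in HIP-PEL_10d. *Hpse*, which encodes heparanase, had 3 and 2 counts in SHAM, 240, 85 and 369 in PEL_10d, 10 and 18 in HIP-SHAM and 8, 3 and 8 in HIP-PEL_10d. Counts of *Cst7*, a cystatin of activated microglia, were 0 and 1 in SHAM, 115, 109 and 111 in PEL_10d, 4 and 1 in HIP-SHAM and 15, 5 and 4 in HIP-PEL_10d. In each of the 3 genes the PEL_10d libraries stood above every other library. Interactions were 9.04, 7.56 and 5.81, and 4.80 for *Acp5*, an acid phosphatase of macrophages with 6 and 1 counts in SHAM and 85, 19 and 66 in PEL_10d. *Mmp12*, the macrophage elastase, had 2 and 0 counts in SHAM, 1930, 173 and 945 in PEL_10d, 0 and 1 in HIP-SHAM and 1, 1 and 1 in HIP-PEL_10d. It passed in the hypothalamus (adjusted p = 0.0016). Its interaction missed the threshold in edgeR (adjusted p = 0.683) and passed with DESeq2 (adjusted p = 0.000519) and with limma on log2(FPKM + 0.1) and log2(FPKM + 1) (adjusted p = 0.0049 and 0.0162), and over all its alternatives the adjusted p ranged from 0.000519 to 1.

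The lists of phagocyte genes went the same way. They were written with earlier results of these data known and hold genes named above, so they are no separate support. Of disease-associated and phagocytic microglia and macrophage genes, 21 of 35 genes tested were higher for the interaction, with a median of 2.15 in the hypothalamus and 0.24 in the hippocampus. Complement components and Fc gamma receptors had 19 higher of 24 and medians of 2.33 in the hypothalamus and 0.34 in the hippocampus; the highest were 4.37 for *Cybb*, 3.69 for *C3ar1*, 2.44 for *Itgb2* and 2.30 for *Fcgr1*, a subunit of the NADPH oxidase, a complement receptor, an integrin chain and an Fc receptor. *C1qb*, a chain of the first complement component, had 23.4 and 24.1 CPM in SHAM, 137, 100.1 and 114 in PEL_10d, 26.9 and 28.7 in HIP-SHAM and 42.0, 38.6 and 38.5 in HIP-PEL_10d. It rose in both regions without overlap, by 2.30 and 0.51 (log2), and its interaction was 1.79 ± 0.17 (SE, adjusted p = 0.00018). Homeostatic microglia genes had 10 higher of 20, medians of 0.83 in the hypothalamus and 0.23 in the hippocampus, and interactions of 1.95 for *Ptprc*, 1.48 for *Aif1* and 1.19 for *Fcrls*. With both Sham 1 libraries 9 phagocyte and 10 complement genes passed, and 0 of 20 homeostatic microglia genes in edgeR (9 at an unadjusted p under 0.05). The microglia list sum was 1894 and 1881 FPKM in SHAM, 2405, 2285 and 2400.1 in PEL_10d, 1085 and 1100.0 in HIP-SHAM and 1302, 1155 and 1230.4 in HIP-PEL_10d, with *Cst3* the most abundant gene. In bulk tissue, more or fewer cells of a type and more or less RNA per cell cannot be told apart.

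Lysosomal enzymes and membrane proteins, which digest what phagocytes take up, had 24 higher and 1 lower of 36, with medians of 0.77 in the hypothalamus and −0.06 in the hippocampus. *Ctsd*, the aspartic protease cathepsin D, had 414 and 421 CPM in SHAM, 1716, 991 and 1664 in PEL_10d, 495 and 571 in HIP-SHAM and 466, 396 and 424 in HIP-PEL_10d. The hypothalamic groups were far apart while all hippocampal libraries of PEL lay below those of Sham, and the interaction was 2.12 ± 0.26 (SE, adjusted p = 0.000821). *Cd68*, a phagocyte membrane glycoprotein, and the cathepsins *Ctsc* and *Ctsz* followed with 2.99, 2.38 and 2.11. *Cd68* had 6.14 and 5.29 CPM in HIP-SHAM and 10.4, 7.73 and 8.84 in HIP-PEL_10d, apart without passing there. Including both Sham 1 libraries, 7 genes of the list passed the interaction. *Ctsc* was 1 of 5 lysosomal genes that changed in opposite directions, with 12.1 and 11.3 CPM in SHAM, 36.9, 27.4 and 41.2 in PEL_10d, 23.9 and 25.5 in HIP-SHAM and 16.1, 11.8 and 14.9 in HIP-PEL_10d.

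Antigen presentation, interferon-stimulated and chemokine genes were placed alike. MHC class I and II presentation had 9 higher of 19 with medians of 1.76 in the hypothalamus and 0.32 in the hippocampus, and interactions of 2.35 for *H2-Eb1*, 1.91 for *Psmb8*, 1.76 for *H2-T23* and 1.55 for *H2-DMb1*; H2 genes are near-identical copies whose reads may have been shared between them. Interferon-stimulated genes had 11 higher of 26 and medians of 1.38 in the hypothalamus and 0.08 in the hippocampus, led by 3.77 for *Oas1a*, 3.18 for *Bst2*, 2.52 for *Isg15* and 1.68 for *Ifitm3*. *Bst2*, which tethers budding virus particles, had 2.90 and 3.12 CPM in SHAM, 8.69, 14.2 and 8.20 in PEL_10d, 4.76 and 7.05 in HIP-SHAM and 2.61, 1.62 and 2.56 in HIP-PEL_10d, so that it rose in one region and fell in the other without overlap in either. Chemokines and injury cytokines had 4 higher of 21, beside 6.52% of all genes tested, with medians of 1.81 in the hypothalamus and 0.31 in the hippocampus. Interactions were 1.98 for *Ccl6*, 1.61 for *Cxcl16*, 1.53 for *Osmr* and 1.31 for *Ccl9*. With both Sham 1 libraries 3 MHC and 5 interferon-stimulated genes passed. Of 16 chemokine and cytokine genes tested then, 0 passed in edgeR (8 at an unadjusted p under 0.05). Lymphocyte and neutrophil markers had 0 of 10 past the interaction in edgeR (1 at an unadjusted p under 0.05 and 0 with DESeq2) at medians of 1.80 in the hypothalamus and 0.75 in the hippocampus. Their sum was 8.61 and 6.29 FPKM in SHAM and 21.5, 17.1 and 10.4 in PEL_10d, 2.01 and 1.63 in HIP-SHAM and 3.12, 3.88 and 1.84 in HIP-PEL_10d, and 10 of their 20 genes were too low to test.

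Reactive astrocyte genes had 13 higher of 27, with medians of 1.30 in the hypothalamus and 0.05 in the hippocampus. *Gfap*, the intermediate filament of astrocytes, had 240.3 and 316 CPM in SHAM, 992, 856 and 1089.6 in PEL_10d, 321 and 372 in HIP-SHAM and 585, 389.6 and 413 in HIP-PEL_10d. Every lesioned library exceeded the Sham libraries of its own region, yet the hippocampal change did not pass (log2 0.42, adjusted p = 0.172). The interaction was 1.40 ± 0.24 (SE, adjusted p = 0.00488). Other members were 3.51 for *Steap4*, 2.17 for *Emp1* and 1.76 for *Cd109*; *Steap4*, a metalloreductase, passed in the hippocampus, where it fell. Astrocyte function genes had 3 higher and 2 lower of 19 and medians of −0.02 in the hypothalamus and 0.07 in the hippocampus. The water channel gene *Aqp4* rose in the hypothalamus, from 193 and 192 CPM in SHAM to 479, 453 and 465 in PEL_10d, against 173 and 222 in HIP-SHAM and 227, 181 and 205 in HIP-PEL_10d, where the groups overlapped. Its interaction was 1.23, against 0.94 for *Slco1c1*, a thyroid hormone transporter that fell in the hippocampus, −0.41 for the glutamate transporter *Slc1a3*, which rose there, and −0.40 for the glycolytic enzyme *Aldoc*, which passed in neither region; *Slco1c1* and *Aldoc* turned to −0.81 and 0.09 with both Sham 1 libraries. Growth factor *Igf1* rose in the hypothalamus, from 6.43 and 5.40 CPM in SHAM to 36.5, 16.5 and 26.1 in PEL_10d, and stood at 7.94 and 6.07 in HIP-SHAM and 5.41, 8.27 and 8.77 in HIP-PEL_10d. Its hypothalamic groups did not overlap and its interaction was 2.05 ± 0.45 (SE, adjusted p = 0.0146).

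Lists of dividing cells, vessels, oligodendrocytes and injured neurons had shares of genes past the interaction on both sides of the 10.7% of all genes tested, so that the counts set none of these lists apart. Cell cycle and DNA replication genes had 3 higher of 20, with *Mki67* and *Mcm5* at 1.55 and 1.30. Endothelial and blood-brain barrier genes had 2 higher of 20, the cadherin *Cdh5* at 1.01 and the lipid transfer protein *Pltp*, which rose in the hypothalamus and fell in the hippocampus, at 1.16. Myelin and oligodendrocyte genes had 1 higher of 21, the 1 being *Enpp6* of newly forming oligodendrocytes (1.25), though 21 had an interaction above 0. Axon injury and regeneration genes had 2 higher and 2 lower of 23. *Atf3*, a transcription factor of injured neurons, had 0.694 and 1.5 CPM in SHAM, 18.2, 8.96 and 16.2 in PEL_10d, 0.794 and 0.587 in HIP-SHAM and 1.94, 1.20 and 0.622 in HIP-PEL_10d, apart in the hypothalamus and overlapping in the hippocampus, with an interaction of 2.83. The small heat shock gene *Hspb1* passed in neither region on its own and had 1.47, and the tubulin gene *Tubb3*, which fell in the hypothalamus, had −0.54 and turned to 0.20 with both Sham 1 libraries.

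Cholesterol synthesis and uptake genes fell in the hypothalamus and moved less in the hippocampus. Of 24 genes tested, 13 were lower for the interaction, 17 fell in the hypothalamus and 2 in the hippocampus, and the medians were −0.62 in the hypothalamus and −0.09 in the hippocampus. *Fdft1*, squalene synthase (chr14:63145150-63179578), had 124 and 120.2 CPM in SHAM, 70.5, 69.3 and 57.5 in PEL_10d, 87.9 and 83.3 in HIP-SHAM and 83.5, 90.8 and 87.5 in HIP-PEL_10d. The hypothalamic groups were apart and the hippocampal groups overlapped, with an interaction of −0.92 ± 0.12 (SE, adjusted p = 0.00113). *Sqle*, which oxidizes squalene, had 98.8 and 96.9 CPM in SHAM, 58.4, 59.1 and 48.6 in PEL_10d, 68.1 and 72.8 in HIP-SHAM and 69.1, 65.3 and 63.6 in HIP-PEL_10d. Its hypothalamic groups were apart too, and the interaction was −0.73 ± 0.12 (SE, adjusted p = 0.00411). *Mvd* and *Fdps*, enzymes of the mevalonate pathway, had −0.77 and −0.66. *Hmgcs1* and *Idi1*, earlier and later enzymes of that pathway, fell in both regions and further in the hypothalamus (−0.38 and −0.57). With both Sham 1 libraries 0 of 23 passed the interaction in edgeR (6 at an unadjusted p under 0.05, all lower), and the list median of the interaction was −0.30, against −0.52 in the 10 libraries.

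Further genes lower in the hypothalamus only were named by the rule. *Dgkk*, a diacylglycerol kinase, had 119.7 and 119 CPM in SHAM and 86.2, 92.2 and 79.8 in PEL_10d, against 0.505 and 0.783 in HIP-SHAM and 1.67, 1.44 and 0.898 in HIP-PEL_10d. All lesioned libraries were below Sham in the hypothalamus and above it at far lower levels in the hippocampus, where the change did not pass, and the interaction was −1.51 ± 0.34 (SE, adjusted p = 0.016). Interactions were −1.84 for *Krt73*, −1.19 for *Pcdha6*, −1.04 for *Celf6* and −0.90 for *Trpc6*. *Krt73*, a keratin, rested on 20 and 10 counts in SHAM and 4, 4 and 4 in PEL_10d, and *Pcdha6* shares exons with the other protocadherin alpha genes. Tachykinin gene *Tac1* was the 1 gene of 26 for releasing hormones, feeding and arousal peptides past the interaction in edgeR (−0.88); 2 passed with DESeq2, 6 had an unadjusted p under 0.05 in edgeR, and 22 lay below 0. The interactions of *Dgkk*, *Celf6* and *Tac1* turned to 5.05, 0.96 and 2.26 with both Sham 1 libraries.

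Genes of the choroid plexus fell in the hippocampus. Of 15 choroid plexus markers, 15 fell in the hippocampus and 0 passed in the hypothalamus in edgeR (1 at an unadjusted p under 0.05 and 0 with DESeq2), and 12 passed the interaction; medians were 0.21 in the hypothalamus and −3.88 in the hippocampus. *Col8a1*, a short-chain collagen (chr16:57624258-57754737), had 7.82 and 7.50 CPM in SHAM, 17.2, 13.2 and 18.3 in PEL_10d, 37.1 and 47.1 in HIP-SHAM and 1.07, 0.419 and 3.66 in HIP-PEL_10d. The hippocampal groups were far apart, and the interaction was 5.74 ± 0.56 (SE, adjusted p = 0.000236). The water channel gene *Aqp1* had 0.757 and 0.300 CPM in SHAM, 1.48, 0.711 and 1.53 in PEL_10d, 30.0 and 40.6 in HIP-SHAM and 1.0, 0.419 and 5.18 in HIP-PEL_10d. HIP-PEL_10d 3 kept the highest level among the lesioned hippocampal libraries in both genes, and the interaction of *Aqp1* was 5.26 ± 1.11 (SE, adjusted p = 0.0125). *Kcnj13*, *F5* and *Prlr*, a potassium channel, a coagulation factor and the prolactin receptor, had 4.64, 4.53 and 3.43. The interactions of *Aqp1* and *F5* turned to −1.18 and −1.17 with both Sham 1 libraries.

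*Ttr*, the thyroxine carrier that the choroid plexus secretes, had 5.49 and 6.12 CPM in SHAM, 3.47, 5.19 and 11.7 in PEL_10d, 5456 and 6803 in HIP-SHAM and 146, 36.4 and 989.9 in HIP-PEL_10d. Both HIP-SHAM libraries were above every HIP-PEL_10d library, which differed widely among themselves. The fall passed in the hippocampus (−3.97 ± 0.90 (SE, adjusted p = 0.0224)) and the interaction did not in edgeR (4.18 ± 1.65 (SE, adjusted p = 0.125)). It passed in 4 alternatives, with limma on log2(FPKM + 1), in both fits with the library number as a replicate block and without HIP-PEL_10d 3, and turned to −6.30 with both Sham 1 libraries; over all alternatives its adjusted p ranged from 0.00158 to 0.622. The whole choroid plexus list summed to 5308 and 6625 FPKM in HIP-SHAM 2 and 3, 267, 116 and 957 in HIP-PEL_10d, 112 and 121 in SHAM 2 and 3, 133, 135 and 150.5 in PEL_10d and 17990.5 in the library labelled SHAM 1. *Ttr* was its most abundant gene in HIP-SHAM 2 and 3, HIP-PEL_10d 3 and SHAM 1, and *Enpp2* in the other libraries. Without *Ttr* the sum was 1151 and 1401 in HIP-SHAM and 151, 87.9 and 189.9 in HIP-PEL_10d, and without *Enpp2* it was 4429 and 5544 and 146, 47.3 and 816. No marker of the list was at 0 in a hippocampal library. Adding both Sham 1 libraries gave a list median of the interaction of −1.18, against 3.86 in the 10 libraries, and 0 of 15 passed in edgeR (1 at an unadjusted p under 0.05). The part that choroid plexus tissue in the dissected samples has in the genes lower in the hippocampus, and in those of opposite direction, was not tested.

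Further named genes fell in the hippocampus only, and 1 fell in both regions. *Esm1*, a secreted proteoglycan of endothelium, had 26 and 26 counts in HIP-SHAM and 1, 0 and 0 in HIP-PEL_10d, against 19 and 26 in SHAM and 38, 23 and 23 in PEL_10d. The hippocampal groups were apart and the hypothalamic groups overlapped, with an interaction of 6.13 ± 0.85 (SE, adjusted p = 0.0016), whose size depends on the count added. *Steap1*, *Rbm47* and *Slco1a5*, a metalloreductase relative, an RNA-binding protein and an organic anion transporter, had 5.38, 4.90 and 4.84. *Creb3l1*, a transcription factor of secretory cells on the magnocellular list, and *Ppp1r1b*, a phosphatase inhibitor of striatal neurons, had 0.97 and 1.18. Without *Ppp1r1b* the striatum markers summed to 34.8 and 29.8 FPKM in HIP-SHAM and 39.7, 30.7 and 38.6 in HIP-PEL_10d, so they did not fall with it. *Steap1* and *Ppp1r1b* turned to −0.91 and −1.32 with both Sham 1 libraries. *Hspa5*, the chaperone BiP of the endoplasmic reticulum, fell in both regions, with 561 and 518 CPM in SHAM, 446, 452 and 457 in PEL_10d, 446 and 404 in HIP-SHAM and 253, 271 and 254 in HIP-PEL_10d. The groups did not overlap in either region, and the fall was the larger in the hippocampus (interaction 0.45 ± 0.09 (SE, adjusted p = 0.00973)).

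Among the genes that rose in the hippocampus only, some stood far higher in the hypothalamus. *Calb2*, the calcium-binding protein calretinin (chr8:110137502-110168210), had 9.53 and 9.27 CPM in HIP-SHAM, 71.3, 62.3 and 34.6 in HIP-PEL_10d, 200.3 and 222 in SHAM and 173, 202 and 193 in PEL_10d. All lesioned hippocampal libraries were above Sham, the hypothalamic groups overlapped, and the interaction was −2.74 ± 0.33 (SE, adjusted p = 0.000755). *Ano2*, a calcium-activated chloride channel, had 0.505 and 0.587 CPM in HIP-SHAM, 15.8, 7.31 and 3.87 in HIP-PEL_10d, 0.946 and 0.840 in SHAM and 0.341, 0.492 and 0.472 in PEL_10d. HIP-PEL_10d 1 was the highest of the 10 libraries, and the interaction was −5.04 ± 0.95 (SE, adjusted p = 0.00783). The library labelled SHAM 1, left out here, had 4.941 FPKM of *Ano2* against 3.774 in HIP-PEL_10d 1. *Dlk1*, an imprinted Notch ligand relative, had 2.45 and 3.00 CPM in HIP-SHAM and 15.4, 22.7 and 5.66 in HIP-PEL_10d, against 241 and 265 in SHAM and 214, 229 and 168 in PEL_10d. Its hippocampal level stayed far under the hypothalamic one, and the interaction was −2.74 ± 0.58 (SE, adjusted p = 0.0131). *Dio3*, which inactivates thyroid hormone, *Ngb*, which encodes neuroglobin, and *Grp*, gastrin-releasing peptide, had −3.06, −2.72 and −2.40. Among the 10 libraries, *Calb2*, *Dlk1* and *Ngb* were higher in every hypothalamic than in every hippocampal one, and *Ano2*, *Dio3* and *Grp* were highest in HIP-PEL_10d. Adding both Sham 1 libraries turned the interactions of *Calb2*, *Dlk1* and *Ngb* to 0.71, 2.94 and 3.02 and their hippocampal changes to −0.50, −2.70 and −2.86, while *Ano2*, *Dio3* and *Grp* kept their direction and missed the threshold.

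Hypothalamus markers had 2 lower of 16 for the interaction, beside 10.7% of all genes tested past it and 4.22% lower. This count does not set the list apart. Its medians were −0.40 in the hypothalamus and 1.46 in the hippocampus, and 16 values of the interaction were below 0, against 8126 of all 15053 genes tested. With both Sham 1 libraries the median of the interaction was 5.50, against −1.79 in the 10 libraries. *Baiap3*, a regulator of dense-core vesicle release, had 3.10 and 2.61 CPM in HIP-SHAM, 13.2, 12.3 and 5.11 in HIP-PEL_10d, 475 and 459.7 in SHAM and 428, 407 and 329 in PEL_10d, an interaction of −2.12 on the log2 scale at hippocampal levels that were a small share of the hypothalamic ones. *Hap1*, the huntingtin-associated protein, had −1.33, and with both Sham 1 libraries these values turned to 4.39 and 1.40. The list summed to 146 and 196 FPKM in HIP-SHAM 2 and 3 and 254, 361 and 221 in HIP-PEL_10d, with *Nnat* the most abundant gene; *Avp* was at 0, 0.482 and 0.110 and *Oxt* at 0, 0 and 0.473 FPKM in HIP-PEL_10d 1 to 3, where 7, 4 and 1 of the markers were at 0. Thalamus markers summed to 57.9 and 47.5 FPKM in HIP-SHAM and 123, 78.1 and 62.5 in HIP-PEL_10d, with *Calb2* the most abundant in HIP-PEL_10d and 1 marker at 0 in each of these. Without HIP-PEL_10d 1 the interaction count was 2244 and the hippocampal count 1503. Whether tissue at the edge of the dissected hippocampus has a part in these genes was not tested.

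On the lists of glutamate and GABA receptor subunits, potassium channel subunits and circadian clock genes, the genes past the interaction were lower for it. Of all genes tested, 4.22% were lower and 6.52% higher. Glutamate and GABA receptor subunits had 10 lower of 38, with medians of −0.24 in the hypothalamus and 0.08 in the hippocampus and interactions of −1.74 for *Grm8*, −1.35 for *Grin3a*, −1.03 for *Gabra3* and −0.91 for *Grik3*, all of which rose in the hippocampus only. Potassium channel subunits had 7 lower of 38, with −1.12 for *Kcnk3*, −0.88 for *Kcnip1*, −0.81 for *Kcnt1* and −0.72 for *Kcnk9*, of which *Kcnip1* fell in the hypothalamus only and the others rose in the hippocampus only. Once both Sham 1 libraries were added, these receptor genes stood at 0.32, 0.07, 0.23 and 0.46 and these channel genes at 0.84, 0.59, 0.61 and 0.64, all turned in direction. Circadian clock genes had 3 lower of 18, with −1.07 for *Npas2*, −0.60 for *Nr1d1* and −0.35 for *Cry2*. In edgeR 0 of 38 receptor, 0 of 38 channel and 0 of 18 clock genes passed with both Sham 1 libraries (7, 4 and 5 at an unadjusted p under 0.05). Hippocampus markers had 1 higher and 2 lower of 18, beside 6.52% and 4.22% of all genes tested: *C1ql2* of granule cells had −0.96 and *Calb1* −1.03. *Neurod6*, a transcription factor of pyramidal neurons, fell in the hippocampus from 421 and 339 CPM in HIP-SHAM to 269.5, 229 and 298 in HIP-PEL_10d and rose in the hypothalamus from 0.505 and 0.420 to 1.02, 1.91 and 2.06, an interaction of 2.35 that turned to −5.36 with both Sham 1 libraries.

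Of the 103 genes that changed in opposite directions, 76 rose in the hypothalamus and fell in the hippocampus, and this count was 15 without SHAM 2, 20 without SHAM 3, 42 without HIP-SHAM 2, 25 without HIP-SHAM 3 and 139 without HIP-PEL_10d 1. *Igf2*, a growth factor of the leptomeninges and choroid plexus stroma (chr7:142650766-142666816), had 224 and 267 CPM in SHAM, 711, 343 and 436 in PEL_10d, 218 and 266 in HIP-SHAM and 37.3, 24.8 and 43.7 in HIP-PEL_10d. Neither region's groups overlapped, which the rule that named it required, and the interaction was 3.80 ± 0.39 (SE, adjusted p = 0.000292). *Lbp*, the lipopolysaccharide-binding protein, had 10.3 and 8.88 CPM in SHAM, 29.5, 16.3 and 26.7 in PEL_10d, 39.1 and 52.9 in HIP-SHAM and 9.76, 3.65 and 9.39 in HIP-PEL_10d. It too was apart in both regions, with an interaction of 3.94 ± 0.47 (SE, adjusted p = 0.00072). *Mdfic*, an inhibitor of MyoD family proteins, had 3.03 and 4.74 CPM in SHAM, 17.2, 9.78 and 18.7 in PEL_10d, 17.5 and 18.9 in HIP-SHAM and 5.28, 3.83 and 5.94 in HIP-PEL_10d, and 3.83 ± 0.40 (SE, adjusted p = 0.000322). *Lmx1a*, a roof plate and choroid plexus transcription factor, rested on 14 and 9 counts in SHAM, 38, 43 and 73 in PEL_10d, 39 and 56 in HIP-SHAM and 6, 2 and 9 in HIP-PEL_10d, and had the highest named interaction of the class, 5.13 ± 0.70 (SE, adjusted p = 0.00142). *Col8a2* and *Osgin1* had 3.57 and 3.66. Adding both Sham 1 libraries turned the hypothalamic change of *Lbp*, *Mdfic*, *Lmx1a* and *Col8a2* to −0.86, −0.28, −0.25 and −1.28.

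Leptomeningeal and fibroblast markers had 7 higher of 13, with medians of 1.02 in the hypothalamus and −0.15 in the hippocampus. The collagens *Col3a1* and *Col1a1* (2.55 and 2.23) rose in the hypothalamus only, and matrix Gla protein *Mgp* (2.19) changed in opposite directions. The list summed to 226 and 247 FPKM in SHAM, 699, 355 and 477 in PEL_10d, 91.3 and 111 in HIP-SHAM and 65.6, 98.4 and 54.5 in HIP-PEL_10d, with *Igf2* the most abundant gene except in HIP-PEL_10d, where it was *Dcn*, and none at 0. The part of meningeal tissue in these genes was not tested. Of the growth hormone receptor, STAT5 and IGF axis, 5 higher and 2 lower of 18 passed, among them *Igfbp2* (3.45), a binding protein of IGFs that rose in the hypothalamus and fell in the hippocampus in the 10 libraries and had a hypothalamic change of −0.82 with both Sham 1 libraries. The retinal dehydrogenase *Aldh1a1* on the thyroid hormone list had 1.45, and that list 5 higher and 2 lower of 18.

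The reverse pattern, lower in the hypothalamus and higher in the hippocampus, was held by 27 genes with smaller values, a count that was 1 without SHAM 2, 1 without SHAM 3, 3 without HIP-SHAM 2, 3 without HIP-SHAM 3, 8 without HIP-PEL_10d 2 and 17 without PEL_10d 1. *Gap43*, a growth cone protein (chr16:42248442-42340651), had 353 and 370.0 CPM in SHAM, 294, 312 and 282 in PEL_10d, 67.7 and 72.9 in HIP-SHAM and 105, 133 and 115 in HIP-PEL_10d. The groups were apart in both regions and the interaction was −1.03 ± 0.13 (SE, adjusted p = 0.000793). *Plppr1*, a membrane protein of growing neurites, had 26.2 and 24.1 CPM in SHAM, 18.6, 17.1 and 16.5 in PEL_10d, 11.3 and 10.1 in HIP-SHAM and 19.1, 20.9 and 18.9 in HIP-PEL_10d. It was also apart in both, with −1.40 ± 0.15 (SE, adjusted p = 0.000339). *Cadps2*, which primes dense-core vesicles, had 127 and 143 CPM in SHAM, 104, 109 and 88.3 in PEL_10d, 102 and 99.7 in HIP-SHAM and 129.9, 179.8 and 163 in HIP-PEL_10d, and −1.07 ± 0.18 (SE, adjusted p = 0.00391). *Parm1*, *Usp27x* and the striatal signalling regulator *Rgs9* had −1.04, −1.0 and −0.92, of which *Usp27x* and *Rgs9* turned to 0.11 and 0.88 with both Sham 1 libraries. With both Sham 1 libraries none of the 103 genes kept this class, and *Gap43* then had 0.70 (adjusted p = 0.767) and *Igf2* 3.14 (adjusted p = 0.0493); over all alternatives the adjusted p of *Igf2* ranged from 2.25e-10 to 0.0763 and that of *Gap43* from 2.13e-12 to 0.93.

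**Figure D3:**
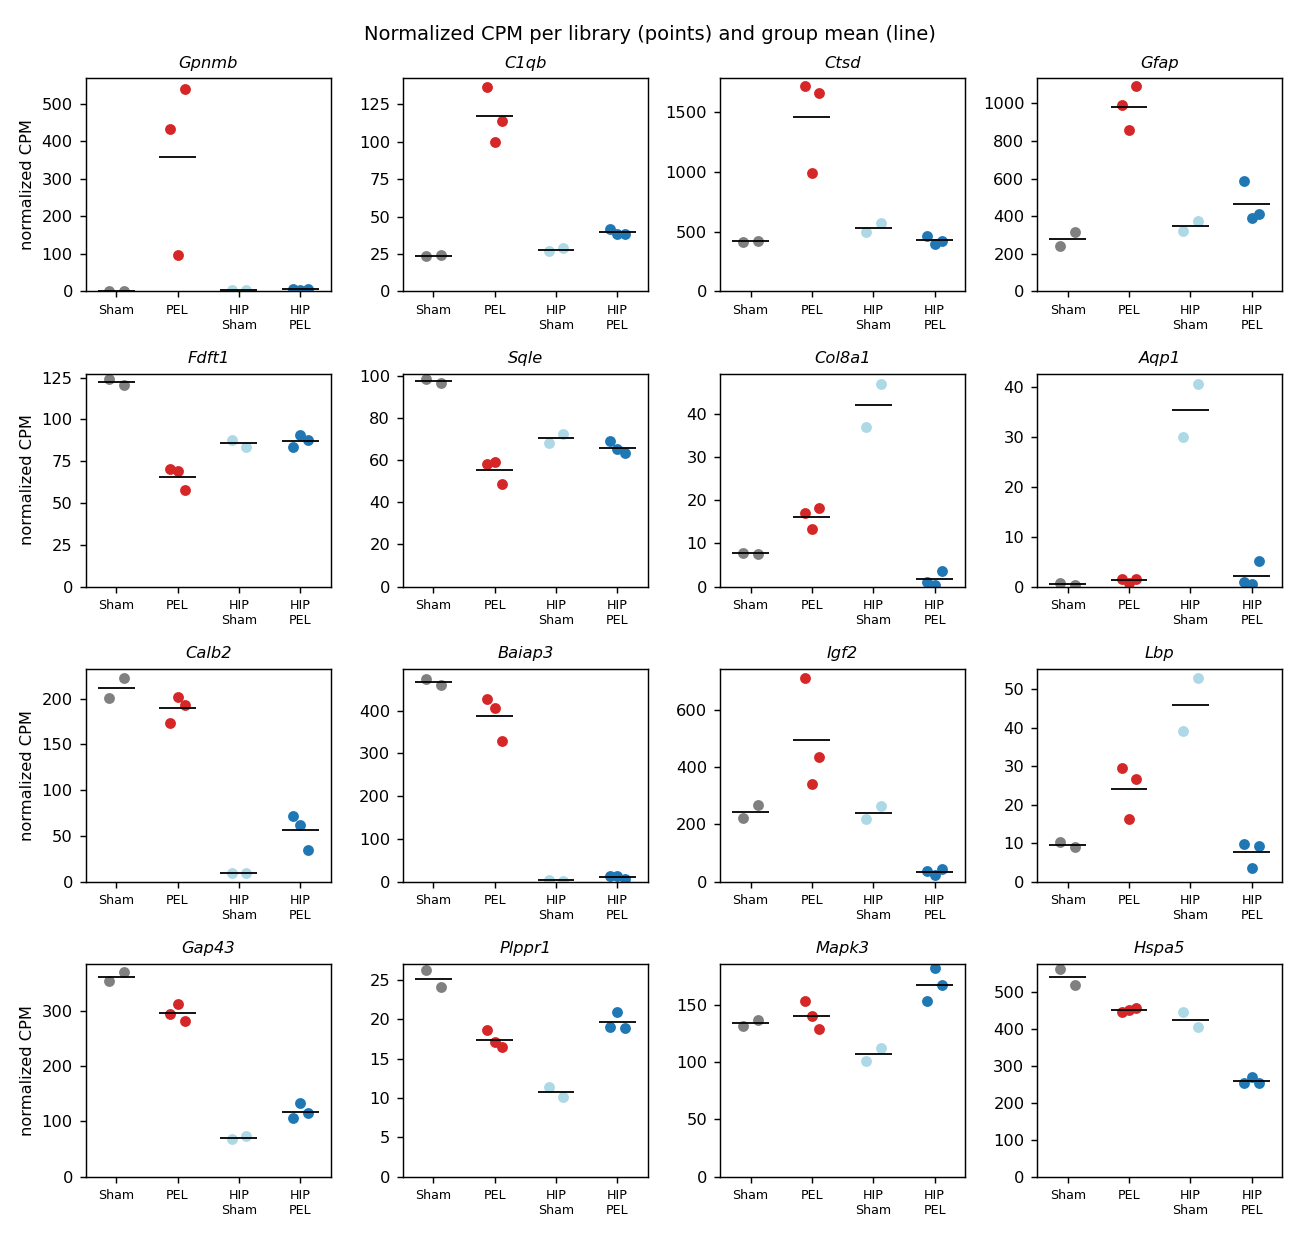
Normalized CPM of 16 genes in each of the 10 libraries (points) with the group mean (line), for hypothalamic Sham and PEL and hippocampal (HIP) Sham and PEL. *Gpnmb* and *Ctsd* stand high in hypothalamic PEL alone, *Col8a1* and *Aqp1* in hippocampal Sham, and *Igf2* and *Lbp* move in opposite directions.

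The same direction held in both regions for 9 genes with unequal size. Of these, 5 rose, among which *Ly86*, *Csf3r* and *C1qb* were named by the rule, with interactions of 1.05, 1.73 and 1.79; *Csf3r*, the receptor for a granulocyte growth factor, had 2.33 and 3.12 CPM in SHAM, 15.9, 16.9 and 16.9 in PEL_10d, 3.46 and 2.87 in HIP-SHAM and 7.42, 4.61 and 5.39 in HIP-PEL_10d, apart in both.

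The neuropeptides of the cut axons fell in the hypothalamus, and in edgeR they missed the threshold of the interaction. *Avp* had 76.8 and 121 CPM in SHAM and 46.5, 28.5 and 35.6 in PEL_10d, against 0.0722 and 0.196 in HIP-SHAM and 0, 0.300 and 0.0691 in HIP-PEL_10d. *Oxt* had 45.5 and 112 CPM in SHAM and 19.1, 15.7 and 16.4 in PEL_10d, against 0 and 0.196 in HIP-SHAM and 0, 0 and 0.276 in HIP-PEL_10d. The falls were without overlap (−1.42 and −2.21, log2) and both were near 0 in the hippocampus, where a change was not detectable at this depth. Adjusted p-values of the interaction were 0.651 and 0.654 in edgeR and 0.0421 and 0.0257 with limma on log2(FPKM + 1), the 1 setting in which they passed, and over all alternatives they ranged up to 0.982 and 0.965. The magnocellular list had 1 higher and 3 lower of 15, among them the granin *Scg2* at −0.46, which turned to 1.31 with both Sham 1 libraries. Receptor genes *Oxtr* and *Avpr1a* had 11.1 and 14.4 and 0.361 and 0.0653 CPM in HIP-SHAM and 14.6, 16 and 14.2 and 1.40, 0.479 and 0.414 in HIP-PEL_10d, with interactions of −0.49 and −1.91 that did not pass. The 8 genes tested of that receptor and degradation list had 0 past the interaction in edgeR (2 at an unadjusted p under 0.05 and 0 with DESeq2).

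Genes of the ERK cascade, a kinase pathway that relays growth factor signals, passed the interaction in both directions. *Mapk3*, which encodes ERK1, had 101 and 113 CPM in HIP-SHAM, 153, 182 and 167 in HIP-PEL_10d, 131 and 137 in SHAM and 153, 140.0 and 129 in PEL_10d. It rose without overlap in the hippocampus (0.65 ± 0.09 (SE, adjusted p = 0.00156)), the hypothalamic groups overlapped, and the interaction was −0.58 ± 0.13 (SE, adjusted p = 0.0143). *Mapk3* was the 1 gene of 30 on the ERK list that passed in the hippocampus in edgeR, where 3 rose and 2 fell at an unadjusted p under 0.05. In the hypothalamus 4 rose and 5 fell, and the list medians were −0.22 there and −0.01 in the hippocampus. For the interaction 3 higher and 4 lower of 30 passed, beside 6.52% and 4.22% of all genes tested. Values were 0.94 for *Shc1*, 0.66 for *Rps6ka3* and −0.65 for *Rps6ka2*, the last of which turned to 0.11 with both Sham 1 libraries. These are RNA levels and say nothing of phosphorylation. Amyloid precursor processing and clearance had 4 higher of 20, beside 6.52% of all genes tested: *Trem2*, the protease gene *Adam17* and the lipid carriers *Apoe* and *Clu* had 1.90, 1.21, 1.15 and 0.65, while *App* and *Bace1* had −0.07 (adjusted p = 0.592) and −0.18 (adjusted p = 0.16).

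Shares of genes past the interaction in the remaining lists also lay on both sides of the 10.7% of all genes tested. Prohormone processing enzymes and granins had 1 higher and 2 lower of 14, with *Ctsl* and *Pcsk1* at 0.96 and −0.77, and hypothalamic neuron transcription factors 3 lower of 28, among them *Arnt2* and *Fezf2* at −0.46 and −1.33. Glucocorticoid-responsive genes had 1 higher of 22, the metallothionein *Mt2* at 0.39, with *Fkbp5* not past the threshold (−0.08). Cytoplasmic ribosomal proteins had 1 higher of 51 (*Rpl22*, 0.45), striatum markers 1 higher and 2 lower of 9 (*Pde10a*, −0.36), neocortex markers 2 lower of 10 (*Rasgrf2*, −0.51) and thalamus markers 1 higher and 1 lower of 10 (*Plekhg1*, 0.71). Of these, *Pcsk1*, *Rpl22* and *Rasgrf2* turned to 0.51, −0.11 and 0.85 with both Sham 1 libraries. In edgeR 0 genes passed among 55 respiratory chain subunits (3 at an unadjusted p under 0.05 and 0 with DESeq2) and 24 immediate early genes (4 at an unadjusted p under 0.05 and 0 with DESeq2). The same held for 5 anterior pituitary markers (0 at an unadjusted p under 0.05 and 0 with DESeq2) and 5 red cell and blood markers (0 at an unadjusted p under 0.05 and 0 with DESeq2). The blood marker sum was 30.5 and 17.8 FPKM in SHAM, 26.5, 42.2 and 126 in PEL_10d, 37.1 and 21.6 in HIP-SHAM and 49.4, 144 and 114 in HIP-PEL_10d.

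Among the named genes past the interaction, 18 lost that call, by missing the threshold or turning, in most of the alternatives that gave them a value. They were *Calb1* (17 of 22), *Ccl9*, *Creb3l1*, *Cry2* and *Pde10a* (16 of 22), *Krt73* and *Shc1* (14 of 22), *Arnt2*, *Mt2* and *Pcsk1* (13 of 22), *Aif1*, *Aldoc*, *Atf3*, *Fezf2*, *Kcnk9* and *Scg2* (12 of 22), *H2-DMb1* (12 of 21) and *Mki67* (11 of 19).

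**Figure D4:**
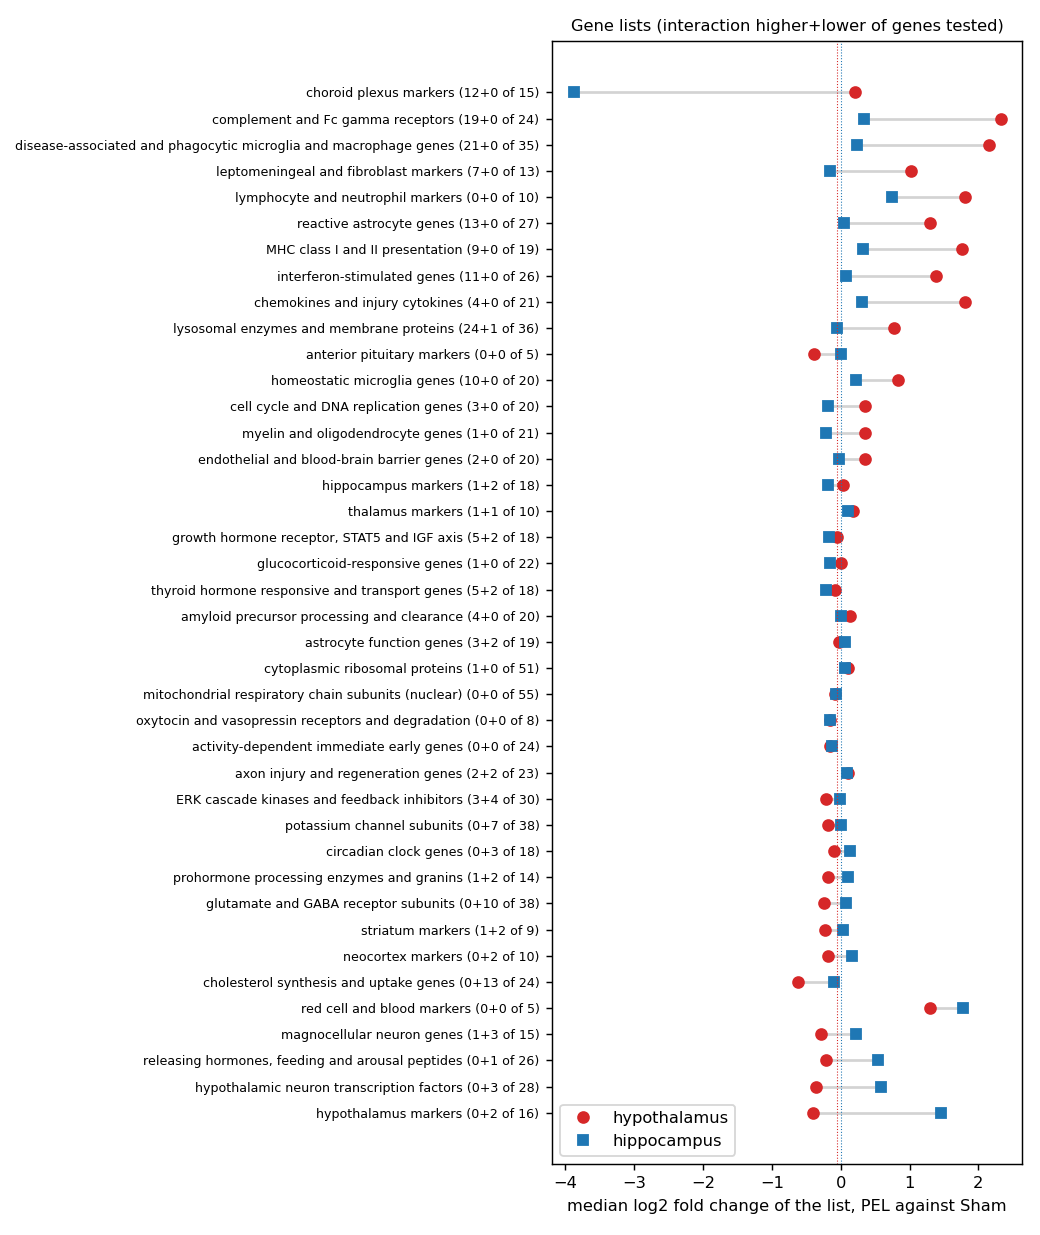
Median log2 fold change of each gene list in the hypothalamus (circles) and the hippocampus (squares), with the number of genes past the interaction, higher plus lower, of those tested; dotted lines mark the medians over all genes, −0.05 and 0.00. The choroid plexus list lies farthest left in the hippocampus and the complement list farthest right in the hypothalamus.

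Promoter sequences from RefSeq (GRCm38.p6, windows from 250 bases before to 50 after the start) were available for 16 of 24 cholesterol genes and 18 of 26 interferon-stimulated genes, both groups that moved together. The letters ATTGGC, 1 form of the CCAAT box that NF-Y binds, read on both strands, were in 13 of 19 cholesterol promoters (68.4%) and in 14.7% of all 32851. The sterol element letters TCACCCCAC were in 1 of the same 19, that of *Hmgcs1*, and in 0.551% of all. The letters GAAANNGAA, a core of interferon response elements, were in 14 of 20 interferon promoters (70.0%) and in 8.56% of all; overlapping matches were counted once per promoter. The lysosomal E-box letters TCACGTGA were in 5 of 32 lysosomal promoters (15.6%) and in 0.974% of all. Of the 21 lysosomal genes past the interaction that had a promoter sequence, 2 held these letters, *Ctsd* among them. These motifs were chosen after the results were seen. A match describes the sequence and is no site. The 250 bases before the start are shown for *Hmgcs1* (chr13:119690101-119690350, plus strand), *Idi1* (chr13:8885356-8885605, plus strand) and *Mvd* (chr8:122443423-122443672, minus strand), with the letters ATTGGC, or GCCAAT where the other strand holds them, in capitals, and for *Isg15* (chr4:156200819-156201068, minus strand), *Oas1a* (chr5:120907526-120907775, minus strand) and *Bst2* (chr8:71537473-71537722, minus strand), with the interferon letters in capitals.
Hmgcs1: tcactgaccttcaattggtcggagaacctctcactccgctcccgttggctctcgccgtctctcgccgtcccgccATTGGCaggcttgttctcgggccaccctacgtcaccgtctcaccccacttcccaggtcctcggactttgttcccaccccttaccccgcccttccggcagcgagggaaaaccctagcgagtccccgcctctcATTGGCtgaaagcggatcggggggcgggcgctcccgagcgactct
Idi1: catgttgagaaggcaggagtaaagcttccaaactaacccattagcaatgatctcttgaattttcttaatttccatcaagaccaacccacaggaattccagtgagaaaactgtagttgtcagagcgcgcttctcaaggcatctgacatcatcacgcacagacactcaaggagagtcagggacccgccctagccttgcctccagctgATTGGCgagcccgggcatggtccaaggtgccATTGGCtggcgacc
Mvd: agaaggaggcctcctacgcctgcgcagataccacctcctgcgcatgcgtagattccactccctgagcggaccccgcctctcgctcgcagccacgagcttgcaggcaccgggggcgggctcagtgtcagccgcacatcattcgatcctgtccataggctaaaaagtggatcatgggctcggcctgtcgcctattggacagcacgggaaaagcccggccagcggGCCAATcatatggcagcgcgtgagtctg
Isg15: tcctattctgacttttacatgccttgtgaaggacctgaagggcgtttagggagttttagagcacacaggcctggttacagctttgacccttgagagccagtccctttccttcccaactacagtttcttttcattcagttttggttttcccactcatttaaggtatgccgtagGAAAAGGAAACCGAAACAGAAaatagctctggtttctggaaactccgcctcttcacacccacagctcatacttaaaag
Oas1a: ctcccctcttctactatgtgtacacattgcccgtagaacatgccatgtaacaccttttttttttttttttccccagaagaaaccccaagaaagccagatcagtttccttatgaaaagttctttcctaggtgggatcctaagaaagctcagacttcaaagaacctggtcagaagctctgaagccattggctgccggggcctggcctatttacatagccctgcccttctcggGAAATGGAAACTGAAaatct
Bst2: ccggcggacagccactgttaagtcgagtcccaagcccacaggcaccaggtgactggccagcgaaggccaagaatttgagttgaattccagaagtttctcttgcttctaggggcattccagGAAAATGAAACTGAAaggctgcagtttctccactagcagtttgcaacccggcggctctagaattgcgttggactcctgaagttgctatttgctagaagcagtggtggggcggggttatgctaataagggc

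Sham tissue is labelled day 0 and PEL tissue day 10, so lesion and time since surgery cannot be told apart. The labels do not say that the libraries of a group came from separate mice, so p-values measure the spread between these samples.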

How the data were processed

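RNA of 12 hypothalamic and hippocampal samples was analysed. The authors deposited an estimated count and an FPKM value per gene and library, made after alignment with Hisat2 and counting with featureCounts; the submitters' processing notes name the builds GRCm38 and mm10, and annotation and strand setting are not given in the sources used here. The deposited FPKM values carry the authors' scaling to gene length and depth. Symbols were matched by identifier for 22219 of 22274 genes. The deposited estimated counts, 8.22% of them not whole, were rounded and tested with edgeR 4.0.16 in R 4.3.3. The 1 fit of 4 groups over 10 libraries used TMM normalization and filterByExpr with a minimum count of 10. The quasi-likelihood F test was read at an adjusted p under 0.05. Alternatives used DESeq2 1.42.0 and limma 3.58.1 on log2(FPKM + 0.1) and log2(FPKM + 1). Python 3.11.15 with pandas 2.3.3 and matplotlib 3.10.9 made tables and plots, and gene positions are those of GENCODE on GRCm38. For pairs of libraries within a group, the chi-square over genes divided by its degrees of freedom was 163 to 167 where 1 was labelled Sham 1 and 4.11 to 11.6 otherwise, and no pair was identical. Genes were named by rule from those with a mean CPM of at least 1: up to 6 of highest and 6 of lowest interaction per class whose groups did not overlap (3 and 3 for the same direction), up to 4 members of each list past the interaction, and 12 genes always; 1 named gene is not reported here. Other alternatives were other filters, a replicate block, all groups in 1 fit, each library left out and the Sham 1 libraries added; promoters are from RefSeq. Reads of genes with near-identical copies or antisense partners may be shared. Members and lists were chosen with earlier results of these data known.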

Additional observations from a re-analysis of the deposited data

Results flagged for a closer look

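A difference of the lesion effect between the regions was found by the interaction test for 1616 genes, 981 higher and 635 lower in the hypothalamus. They hold 708 genes changed in the hypothalamus only, 501 in the hippocampus only and 103 in opposite directions. The named genes past that test follow, each with its interaction (log2).

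Higher in the hypothalamus only were *Acp5* (4.80), *Cst7* (5.81), *Lgals3* (6.22), *Gpnmb* (7.34), *Hpse* (7.56), *Cd5l* (9.04), *Trem2* (1.90), *Adam17* (1.21), *Apoe* (1.15), *Clu* (0.65), *Aqp4* (1.23) and *Emp1* (2.17). To the same class belonged *Psmb8* (1.91), *Cd109* (1.76), *Atf3* (2.83), *Mki67* (1.55), *Mcm5* (1.30), *Ccl6* (1.98), *Cxcl16* (1.61), *Osmr* (1.53), *Ccl9* (1.31), *Cybb* (4.37), *C3ar1* (3.69) and *Itgb2* (2.44). This class also held *Fcgr1* (2.30), *Cdh5* (1.01), *Shc1* (0.94), *Rps6ka3* (0.66), *Igf1* (2.05), *Mt2* (0.39), *Oas1a* (3.77), *Isg15* (2.52), *Ifitm3* (1.68), *Cd68* (2.99), *Ctsd* (2.12) and *Ctsz* (2.11). Its further members were *Col3a1* (2.55), *Col1a1* (2.23), *H2-Eb1* (2.35), *H2-T23* (1.76), *H2-DMb1* (1.55), *Ptprc* (1.95), *Aif1* (1.48), *Fcrls* (1.19), *Enpp6* (1.25), *Ctsl* (0.96), *Rpl22* (0.45) and *Gbp3* (1.60). It held besides *Gfap* (1.40).

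Lower in the hypothalamus only were *Krt73* (−1.84), *Dgkk* (−1.51), *Pcdha6* (−1.19), *Celf6* (−1.04), *Fdft1* (−0.92), *Trpc6* (−0.90), *Tubb3* (−0.54), *Mvd* (−0.77), *Sqle* (−0.73), *Fdps* (−0.66), *Rasgrf2* (−0.51) and *Tac1* (−0.88). To the same class belonged *Kcnip1* (−0.88) and *Pde10a* (−0.36).

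Higher in the hippocampus only were *Ano2* (−5.04), *Dio3* (−3.06), *Dlk1* (−2.74), *Calb2* (−2.74), *Ngb* (−2.72), *Grp* (−2.40), *Slc1a3* (−0.41), *Npas2* (−1.07), *Nr1d1* (−0.60), *Cry2* (−0.35), *Mapk3* (−0.58) and *Grm8* (−1.74). To the same class belonged *Grin3a* (−1.35), *Gabra3* (−1.03), *Grik3* (−0.91), *C1ql2* (−0.96), *Arnt2* (−0.46), *Baiap3* (−2.12), *Hap1* (−1.33), *Kcnk3* (−1.12), *Kcnt1* (−0.81) and *Kcnk9* (−0.72).

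Lower in the hippocampus only were *Slco1a5* (4.84), *Rbm47* (4.90), *Aqp1* (5.26), *Steap1* (5.38), *Col8a1* (5.74), *Esm1* (6.13), *Slco1c1* (0.94), *Steap4* (3.51), *Kcnj13* (4.64), *F5* (4.53), *Prlr* (3.43) and *Creb3l1* (0.97). To the same class belonged *Ppp1r1b* (1.18).

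Up in the hypothalamus and down in the hippocampus were *Col8a2* (3.57), *Osgin1* (3.66), *Igf2* (3.80), *Mdfic* (3.83), *Lbp* (3.94), *Lmx1a* (5.13), *Pltp* (1.16), *Igfbp2* (3.45), *Neurod6* (2.35), *Bst2* (3.18), *Ctsc* (2.38) and *Mgp* (2.19). To the same class belonged *Aldh1a1* (1.45).

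Down in the hypothalamus and up in the hippocampus were *Plppr1* (−1.40), *Cadps2* (−1.07), *Parm1* (−1.04), *Gap43* (−1.03), *Usp27x* (−1.0) and *Rgs9* (−0.92).

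Up in both regions were *Ly86* (1.05), *Csf3r* (1.73) and *C1qb* (1.79).

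Down in both regions were *Idi1* (−0.57), *Hmgcs1* (−0.38) and *Hspa5* (0.45).

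Past the interaction with neither region past its own threshold were *Aldoc* (−0.40), *Hspb1* (1.47), *Fezf2* (−1.33), *Rps6ka2* (−0.65), *Calb1* (−1.03), *Scg2* (−0.46), *Pcsk1* (−0.77) and *Plekhg1* (0.71).

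The 2 libraries left out gave signals above the Sham libraries of their own label. In the library labelled SHAM 1 the hippocampus markers summed to 792 FPKM, against 204 and 201 in SHAM 2 and 3, and the choroid plexus markers to 17990.5 against 112 and 121. In the library labelled HIP-SHAM 1 the hypothalamus markers summed to 2171 FPKM, against 146 and 196 in HIP-SHAM 2 and 3. The cause was not tested.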

How the results depend on the processing

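Counts are given in the order interaction, hypothalamus, hippocampus, hypothalamus only, hippocampus only and opposite directions, and were 1616, 1824, 998, 708, 501 and 103 in the 10 libraries. With both Sham 1 libraries they were 94, 387, 13, 75, 5 and 0. With SHAM 1 alone added they were 15, 562, 2, 14, 0 and 0. With HIP-SHAM 1 alone added they were 284, 476, 76, 167, 52 and 5. At an unadjusted p under 0.05 they were 4098, 4237, 3443, 1729, 1312 and 575. With an absolute log2 fold change of at least 1 added they were 696, 593, 323, 278, 213 and 19. By limma on log2(FPKM + 0.1) they were 1170, 1073, 760, 491, 378 and 57. By limma on log2(FPKM + 1) they were 1250, 1211, 669, 587, 351 and 58. With all groups in 1 fit of 22 libraries they were 1541, 1552, 1269, 561, 626 and 71. The other settings were DESeq2's size factors (1754, 1706, 1029, 716, 565 and 99), DESeq2 (1927, 1802, 1209, 803, 629 and 132), no filter (1631, 1556, 1090, 674, 543 and 103) and a mean count of at least 50 (1470, 1404, 937, 609, 455 and 94). Leaving out each library in turn gave 602 to 2244 for interaction, 394 to 1886 for hypothalamus, 274 to 1503 for hippocampus, 175 to 865 for hypothalamus only, 177 to 842 for hippocampus only and 16 to 174 for opposite, and a region left with 1 Sham library is assumed to vary like the other groups. With Sham 1 libraries added, opposite genes at an unadjusted p under 0.05 in edgeR were 156 with both and 108 with SHAM 1, and hippocampus only genes 363 with SHAM 1. Moves over 1.5 times, interaction, were 630 without SHAM 2, 621 without SHAM 3, 688 without HIP-SHAM 2, 602 without HIP-SHAM 3 and 969 without HIP-PEL_10d 2. Moves over 1.5 times, hypothalamus, were 394 without SHAM 2, 559 without SHAM 3, 1120 without PEL_10d 1 and 1188 without PEL_10d 3. Moves over 1.5 times, hippocampus, were 274 without HIP-SHAM 2, 312 without HIP-SHAM 3, 1503 without HIP-PEL_10d 1 and 470 without HIP-PEL_10d 2. Moves over 1.5 times, hypothalamus only, were 175 without SHAM 2, 199 without SHAM 3, 323 without HIP-SHAM 2, 283 without HIP-SHAM 3, 461 without HIP-PEL_10d 2 and 421 without PEL_10d 3. Moves over 1.5 times, hippocampus only, were 303 without SHAM 2, 275 without SHAM 3, 177 without HIP-SHAM 2, 177 without HIP-SHAM 3, 842 without HIP-PEL_10d 1 and 258 without HIP-PEL_10d 2. Moves over 1.5 times, opposite, were 16 without SHAM 2, 21 without SHAM 3, 45 without HIP-SHAM 2, 28 without HIP-SHAM 3, 174 without HIP-PEL_10d 1 and 61 without HIP-PEL_10d 2.

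The labels do not say that equal numbers mark 1 mouse, and deviations of same-numbered libraries between the regions correlated by 0.048, 0.080 and −0.016 for PEL_10d 1 to 3 and 0.016 for SHAM, with 2 of the 3 PEL_10d libraries best matched to their own number. With the number within treatment as a replicate block the interaction count was 1663, where the effects in each region have no value, and with a replicate block by number the counts were 1732, 1325, 970, 648, 537 and 106.

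Of the 132 named genes past the interaction, 16 stayed past it with both Sham 1 libraries, 83 kept their direction only and 33 turned. Values of opposite sign to the 10-library value follow, per contrast and setting, and the cause was not tested. Both Sham 1 libraries gave for the interaction *Dgkk* 5.05, *Celf6* 0.96, *Aqp1* −1.18, *Steap1* −0.91, *Dlk1* 2.94, *Calb2* 0.71, *Ngb* 3.02, *Gap43* 0.70, *Usp27x* 0.11, *Rgs9* 0.88, *Slco1c1* −0.81, *Aldoc* 0.09, *Tubb3* 0.20, *F5* −1.17, *Rasgrf2* 0.85, *Rps6ka2* 0.11, *Grm8* 0.32, *Grin3a* 0.07, *Gabra3* 0.23, *Grik3* 0.46, *Neurod6* −5.36, *Calb1* 0.00, *Tac1* 2.26, *Baiap3* 4.39, *Hap1* 1.40, *Kcnk3* 0.84, *Kcnip1* 0.59, *Kcnt1* 0.61, *Kcnk9* 0.64, *Scg2* 1.31, *Pcsk1* 0.51, *Rpl22* −0.11, *Ppp1r1b* −1.32, *Avp* 6.75, *Oxt* 6.10, *Avpr1a* 1.84 and *Ttr* −6.30. Both Sham 1 libraries gave for the hypothalamus *Dgkk* 0.09, *Slco1a5* −1.01, *Rbm47* −1.62, *Aqp1* −4.64, *Steap1* −4.64, *Col8a1* −1.10, *Esm1* −0.50, *Dlk1* 0.24, *Calb2* 0.21, *Ngb* 0.15, *Grp* 0.30, *Col8a2* −1.28, *Mdfic* −0.28, *Lbp* −0.86, *Lmx1a* −0.25, *Gap43* 0.19, *Rgs9* 0.12, *Slco1c1* −1.32, *Aldoc* 0.07, *Steap4* −0.28, *Tubb3* 0.00, *Kcnj13* −3.07, *F5* −4.86, *Rasgrf2* 0.09, *Igfbp2* −0.82, *Grin3a* 0.11, *Gabra3* 0.09, *Grik3* 0.10, *Neurod6* −5.31, *Calb1* 0.00, *Tac1* 0.12, *Arnt2* 0.21, *Baiap3* 0.29, *Hap1* 0.14, *Kcnk3* 0.37, *Kcnt1* 0.26, *Kcnk9* 0.25, *Creb3l1* −0.17, *Scg2* 0.26, *Pcsk1* 0.03, *Ppp1r1b* −1.99, *Avpr1a* 0.20, *Bace1* −0.04 and *Ttr* −9.71. Both Sham 1 libraries gave for the hippocampus *Krt73* 0.33, *Dgkk* −4.96, *Celf6* −1.04, *Fdft1* −0.19, *Dlk1* −2.70, *Calb2* −0.50, *Ngb* −2.86, *Gap43* −0.51, *Usp27x* −0.24, *Rgs9* −0.76, *Apoe* −0.06, *Aldoc* −0.02, *Psmb8* 0.00, *Tubb3* −0.20, *Cxcl16* −0.65, *Rasgrf2* −0.76, *Rps6ka3* 0.04, *Rps6ka2* −0.25, *Mt2* 0.02, *Grm8* −0.60, *Gabra3* −0.13, *Grik3* −0.36, *Neurod6* 0.05, *Calb1* 0.00, *Tac1* −2.14, *Baiap3* −4.10, *Hap1* −1.26, *Kcnk3* −0.47, *Kcnip1* −0.73, *Kcnt1* −0.35, *Kcnk9* −0.39, *Scg2* −1.05, *Enpp6* 0.04, *Pcsk1* −0.48, *Rpl22* 0.16, *Avpr1a* −1.63, *App* 0.06, *Mmp12* −0.72 and *Fkbp5* 0.12. SHAM 1 added gave for the interaction *Aqp1* −0.61, *Steap1* −0.33, *Slco1c1* −0.44, *F5* −0.60, *Neurod6* −4.78, *Scg2* 0.03, *Ppp1r1b* −0.85 and *Ttr* −5.72. SHAM 1 added gave for the hypothalamus *Dgkk* 0.09, *Slco1a5* −1.01, *Rbm47* −1.62, *Aqp1* −4.65, *Steap1* −4.64, *Col8a1* −1.10, *Esm1* −0.50, *Dlk1* 0.23, *Calb2* 0.20, *Ngb* 0.15, *Grp* 0.30, *Col8a2* −1.28, *Mdfic* −0.28, *Lbp* −0.86, *Lmx1a* −0.25, *Gap43* 0.18, *Rgs9* 0.12, *Slco1c1* −1.32, *Aldoc* 0.07, *Steap4* −0.28, *Kcnj13* −3.07, *F5* −4.86, *Rasgrf2* 0.09, *Igfbp2* −0.83, *Grin3a* 0.10, *Gabra3* 0.09, *Grik3* 0.10, *Neurod6* −5.31, *Calb1* 0.00, *Tac1* 0.12, *Arnt2* 0.20, *Baiap3* 0.29, *Hap1* 0.14, *Kcnk3* 0.37, *Kcnt1* 0.25, *Kcnk9* 0.25, *Creb3l1* −0.17, *Scg2* 0.25, *Pcsk1* 0.03, *Ppp1r1b* −1.99, *Avpr1a* 0.20, *Bace1* −0.05 and *Ttr* −9.71. HIP-SHAM 1 added gave for the interaction *Dgkk* 4.46, *Celf6* 0.46, *Dlk1* 2.37, *Calb2* 0.33, *Ngb* 2.49, *Gap43* 0.21, *Rgs9* 0.41, *Rasgrf2* 0.42, *Grm8* 0.06, *Grik3* 0.13, *Tac1* 1.70, *Baiap3* 3.81, *Hap1* 0.86, *Kcnk3* 0.37, *Kcnip1* 0.21, *Kcnt1* 0.32, *Kcnk9* 0.18, *Scg2* 0.81, *Pcsk1* 0.09, *Avp* 6.15, *Oxt* 5.51 and *Avpr1a* 1.56. HIP-SHAM 1 added gave for the hypothalamus *Arnt2* 0.03 and *Kcnt1* 0.04. HIP-SHAM 1 added gave for the hippocampus *Krt73* 0.38, *Dgkk* −4.89, *Celf6* −0.97, *Fdft1* −0.13, *Dlk1* −2.63, *Calb2* −0.43, *Ngb* −2.79, *Gap43* −0.45, *Usp27x* −0.18, *Rgs9* −0.70, *Apoe* −0.01, *Tubb3* −0.14, *Cxcl16* −0.60, *Rasgrf2* −0.70, *Rps6ka3* 0.09, *Rps6ka2* −0.19, *Mt2* 0.08, *Grm8* −0.53, *Gabra3* −0.07, *Grik3* −0.30, *Neurod6* 0.09, *Tac1* −2.07, *Baiap3* −4.02, *Hap1* −1.19, *Kcnk3* −0.40, *Kcnip1* −0.67, *Kcnt1* −0.29, *Kcnk9* −0.32, *Scg2* −0.98, *Enpp6* 0.09, *Pcsk1* −0.42, *Rpl22* 0.21, *Avpr1a* −1.57, *App* 0.11, *Mmp12* −0.67 and *Fkbp5* 0.17. Size factors of DESeq2 gave for the hippocampus *Mt2* 0.00 and *App* 0.02. DESeq2 gave for the hippocampus *Mt2* 0.00 and *App* 0.02. No filter gave for the hypothalamus *Arnt2* 0.02 and *Kcnt1* 0.02. No filter gave for the hippocampus *Mt2* 0.01 and *App* 0.02. Mean count of at least 50 gave for the hypothalamus *Kcnt1* 0.00. The replicate block by number gave for the hypothalamus *Esm1* −0.11, *Arnt2* 0.04 and *Ppp1r1b* −0.02. The replicate block by number gave for the hippocampus *Aqp4* 0.00, *Psmb8* −0.05, *Mki67* −0.03, *Cxcl16* −0.02 and *Fcgr1* −0.25. All groups gave for the hypothalamus *Arnt2* 0.03 and *Kcnt1* 0.04. All groups gave for the hippocampus *Mt2* 0.01, *Gbp3* 0.00 and *App* 0.02. FPKM + 0.1 gave for the hypothalamus *Arnt2* 0.05 and *Kcnt1* 0.04. FPKM + 0.1 gave for the hippocampus *Fcgr1* −0.32, *Igf1* −0.09, *Mt2* 0.01, *Col3a1* 0.14 and *App* 0.02. FPKM + 1 gave for the hypothalamus *Arnt2* 0.05 and *Kcnt1* 0.04. FPKM + 1 gave for the hippocampus *Fcgr1* −0.19, *Igf1* −0.05, *Mt2* 0.01, *Col3a1* 0.08 and *App* 0.02. Leaving out 1 library gave for the interaction *Avp* −2.19 to 0.39 and *Oxt* −5.77 to 1.65. Leaving out 1 library gave for the hypothalamus *Arnt2* −0.08 to 0.04, *Avpr1a* −0.24 to 0.13, *Bace1* 0.00 to 0.05, *Creb3l1* −0.03 to 0.22, *Esm1* −0.08 to 0.40, *F5* −0.07 to 0.72, *Grp* −0.40 to 0.12, *Kcnt1* −0.09 to 0.06, *Nr1d1* −0.09 to 0.18, *Ppp1r1b* −0.15 to 0.28 and *Ttr* −0.42 to 0.53. Leaving out 1 library gave for the hippocampus *App* −0.01 to 0.03, *Aqp4* −0.09 to 0.26, *Avp* −1.77 to 0.81, *Ccl9* −0.13 to 0.74, *Col3a1* −0.43 to 0.22, *Cybb* −1.17 to 0.13, *Fcgr1* −0.27 to 0.29, *Fdps* −0.10 to 0.00, *Gbp3* −0.12 to 0.12, *H2-DMb1* −0.28 to 0.01, *Ifitm3* −0.58 to 0.14, *Igf1* −0.05 to 0.33, *Krt73* −0.27 to 0.04, *Mki67* −0.08 to 0.25, *Mt2* −0.05 to 0.07, *Oxt* −3.82 to 3.61, *Psmb8* 0.00 to 0.32 and *Shc1* −0.14 to 0.09.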
